A study of Homo sapiens with 7 samples.

Results

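The polymetastatic L1Mic-R2 lines are human tumor cell lines grown from mouse lungs, and the study profiled only some of those it obtained. Described here are the 4 profiled L1Mic-R2 lines, named 2t, 3t, 7t and 8t, out of the 7 lines measured in the study. They were chosen by their label, Polymets, and not by any measured value. All 4 descend from MDA-MB-435-GFP, an established human line that carries green fluorescent protein, was injected into athymic mice and is widely held today to be of melanoma origin although it was long used as a breast cancer line. The L1Mic cells came from lung tissue free of visible macrometastases. After a second passage through mice, each L1Mic-R2 line was recovered from the lung of a distinct animal and kept by selection for the GFP vector. Apart from this selection, which used the antibiotic G418, no drug or other treatment is given for any of them. The ages of the host mice are not given in the sources used here. The labels describe injection into the mammary fat pad, whereas the methods of the study describe the tail vein.

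Every line was measured once, on 1 TaqMan Human MicroRNA Array A card with 384 wells and 377 assays for human microRNAs. The readout is the threshold cycle (Ct), the PCR cycle at which fluorescence crosses a set level, so that 1 cycle less stands for about 2 times more template. A microRNA with a Ct below 38 counted as detected, and wells without a signal, termed Undetermined, are listed at 40. Only U6, a small nuclear RNA used as a control, was measured in 4 wells of each card, and its SD between wells of 1 card was 0.041 to 0.098 cycles. A difference between 2 lines therefore cannot be told apart from the error of a card, no test of a line against another was possible, and the number of cards limits the precision. Because the card reads pooled RNA, fewer cells of a kind and less RNA per cell cannot be told apart.

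MicroRNAs are short RNAs that guide the silencing complex to messenger RNAs. The target is read mainly by the seed, bases 2 to 8 of the mature strand, so that microRNAs with 1 seed form a family with overlapping targets. Many are cut from shared precursors, and members of such genomic clusters can still differ in the amount of mature strand. The miR-17 family is known for driving proliferation, let-7 for holding back growth and stem cell programs, miR-146a for damping inflammatory signaling, and miR-204 and miR-211 for their place in pigment cells.

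Mature sequences of the microRNAs on which the description turns are given 5′ to 3′, from RefSeq on GRCh38.p14, with the seed in capitals. The miR-17 family is shown because its 6 members share a seed and span 5.96 cycles in mean Ct.

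miR-106a: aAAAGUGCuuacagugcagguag
miR-17: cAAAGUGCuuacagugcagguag
miR-20b: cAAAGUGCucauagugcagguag
miR-93: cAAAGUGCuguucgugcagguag
miR-20a: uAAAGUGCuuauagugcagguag
miR-106b: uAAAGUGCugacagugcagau

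Compared base by base from the 5′ end, miR-106a and miR-17 differ at 1 of 23 positions, and miR-93 and miR-106b at 5 of 21. An assay for 1 of a pair so alike can also read the other, so that the values of miR-17 and miR-106a, and the share of their family, are uncertain. The let-7 and miR-29 families hold similar pairs and are shown with the leading microRNA, miR-146a, and with miR-16, miR-24 and miR-222.

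miR-146a: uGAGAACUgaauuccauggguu
miR-16: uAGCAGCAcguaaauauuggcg
miR-24: uGGCUCAGuucagcaggaacag
miR-222: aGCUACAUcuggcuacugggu
miR-29a: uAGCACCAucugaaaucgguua
miR-29b: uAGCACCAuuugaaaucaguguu
miR-29c: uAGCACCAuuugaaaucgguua
let-7a: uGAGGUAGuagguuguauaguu
let-7b: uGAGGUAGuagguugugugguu
let-7c: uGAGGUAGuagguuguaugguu
let-7e: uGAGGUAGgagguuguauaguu
let-7g: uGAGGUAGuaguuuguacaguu

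The last set holds microRNAs for which line 7t had the earliest Ct, miR-211 with its sister miR-204, miR-126, and miR-200c with miR-200b. Counted from the 5′ end, miR-204 and miR-211 differ at 2 of 22 positions, both outside the seed.

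miR-204: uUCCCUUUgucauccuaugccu
miR-211: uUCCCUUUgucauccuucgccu
miR-126: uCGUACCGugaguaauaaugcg
miR-200b: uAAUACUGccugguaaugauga
miR-200c: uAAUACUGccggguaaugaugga

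Mature miR-211 lies at chr15:31065095-31065116 on the minus strand, within the span of TRPM1, the melastatin channel gene of melanocytes. Mature miR-204 lies at chr9:70810031-70810052 on the minus strand, within the span of the related gene TRPM3. Mature miR-126 lies at chr9:136670653-136670674 on the plus strand, within the span of EGFL7, a gene of endothelial cells. Mature miR-146a lies at chr5:160485372-160485393 on the plus strand, in the span of no protein-coding gene on that strand. Exons and introns were not distinguished in the annotation used. Of the 377 assays, 335 were matched to a RefSeq locus by name.

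The repertoire was largely shared. Of the 377 microRNAs, 139 (36.9%) were detected in all 4 lines, 61 in only some of them and 177 in none. Of the latter, 163 were Undetermined on every card and 14 gave a Ct of 38 or more on at least 1 card. The number detected was 164 in line 2t, 167 in line 3t, 172 in line 7t and 160 in line 8t. Line 7t was highest and line 8t lowest, and the controls moved alike. The Ct of U6 was 16.36, 16.22, 16.15 and 16.77 in lines 2t, 3t, 7t and 8t, and that of RNU48, a small nucleolar RNA, was 20.75, 20.42, 20.07 and 20.97. RNU44, another of that class, read 25.75, 25.30, 25.29 and 25.97. Averaged over the 139 shared microRNAs, the Ct was 29.41, 29.35, 29.30 and 29.78. Line 8t was thus latest on each of these measures and line 7t earliest, and the part of this offset in the number detected was not tested.

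A few microRNAs made up most of the signal. The earliest in every line was miR-146a, at a Ct of 19.69 in line 2t, 19.33 in line 3t, 19.34 in line 7t and 20.10 in line 8t. If each cycle doubles the template, it held 29.5% ± 1.83 (SD, n = 4) of the summed signal of all detected microRNAs. The 5 earliest, miR-146a, miR-16, miR-106a, miR-17 and miR-24, held 61.7% ± 1.57 (SD, n = 4), and the 10 earliest 80.2% ± 1.09 (SD, n = 4). The 30 earliest held 95.0% ± 0.42 (SD, n = 4). Levels of different assays also depend on the efficiency of each assay, so that ranks and shares describe signal on the card and not molecules per cell.

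**Figure D1:**
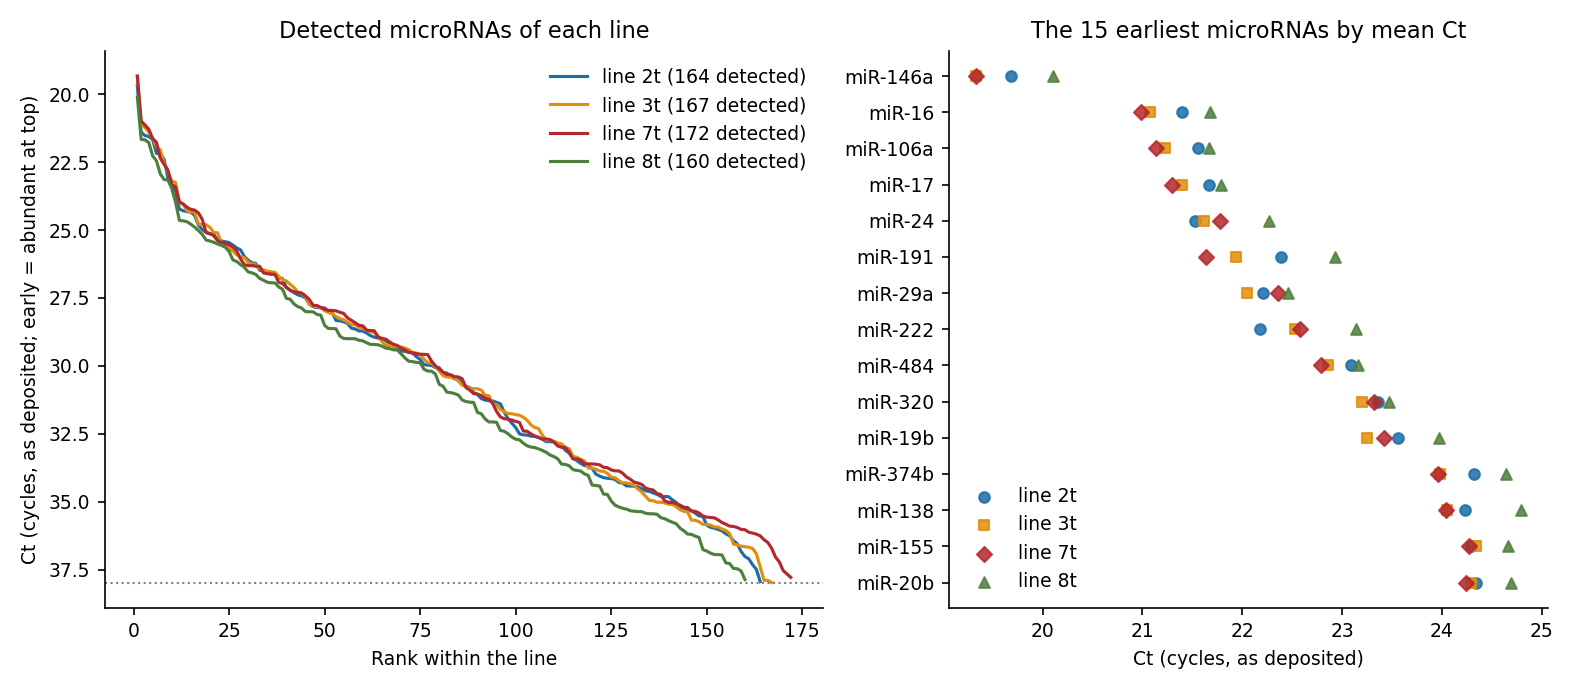
Left, Ct as deposited (vertical axis, cycles, reversed so that abundant microRNAs stand at the top) against rank for the detected microRNAs of each line, with the limit of 38 dotted. Right, Ct of the 15 earliest microRNAs, 1 symbol per line. The curves of lines 2t, 3t and 7t lie close together and that of line 8t lies lower, and line 8t is the latest symbol for all 15.

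Ranks at the top were stable. The microRNA miR-16, a brake on the cell cycle, read 21.40, 21.08, 20.99 and 21.68 in lines 2t, 3t, 7t and 8t and held rank 2 or, in line 8t, rank 3. The pair miR-106a and miR-17 had mean Ct of 21.40 ± 0.25 and 21.54 ± 0.23 (SD, n = 4). The cell cycle regulator miR-24 read 21.52 in line 2t, 21.61 in line 3t, 21.78 in line 7t and 22.27 in line 8t. It held rank 3 in line 2t, rank 5 in lines 3t and 8t and rank 6 in line 7t. Neighbors in this order, miR-16 with miR-106a and miR-106a with miR-17, differed in mean Ct by less than the SD of each.

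The next microRNAs included miR-191, which read 22.39, 21.93, 21.64 and 22.93 in the same order of lines, a range wider than that of the other leading ones. The matrix regulator miR-29a had a mean Ct of 22.27 ± 0.18 (SD, n = 4) and miR-222, known for repressing the cell cycle inhibitor p27, of 22.61 ± 0.40 (SD, n = 4). The places 9, 10 and 11 were held in every line by miR-484, miR-320 and miR-19b, at mean Ct of 22.98, 23.34 and 23.55. The places 12 to 15 by mean Ct went to miR-374b, miR-138, miR-155 and miR-20b, between 24.23 and 24.39, and these 4 differed by less than the SD of each. An immune cell microRNA in other settings, miR-155 read 24.29, 24.34, 24.27 and 24.66. The widely abundant tumor microRNA miR-21 was far lower in this order, at 28.79, 28.63, 29.21 and 29.83 in lines 2t, 3t, 7t and 8t. It was named after its values were seen.

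By seed family, the miR-146 family led with 29.6% ± 1.86 (SD, n = 4), nearly all of it miR-146a, since its sister miR-146b-5p came 8.67 ± 0.41 cycles later (SD, n = 4). The miR-17 family followed with 18.4% ± 1.30 (SD, n = 4), the miR-16 family with 9.42% ± 0.46 and miR-24 with 6.55% ± 0.99 (SD, n = 4). The miR-29 family held 5.10% ± 0.69 and the miR-222 family, which includes miR-221, 3.80% ± 0.88 (SD, n = 4). Of the 28 families described, 9 exceeded 1% of the signal, and all 28 together held 81.5%. In 15 of the 28, every member on the card was detected in all 4 lines, which held for 62 of the 80 members, beside 139 of all 377 assays (36.9%).

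**Figure D2:**
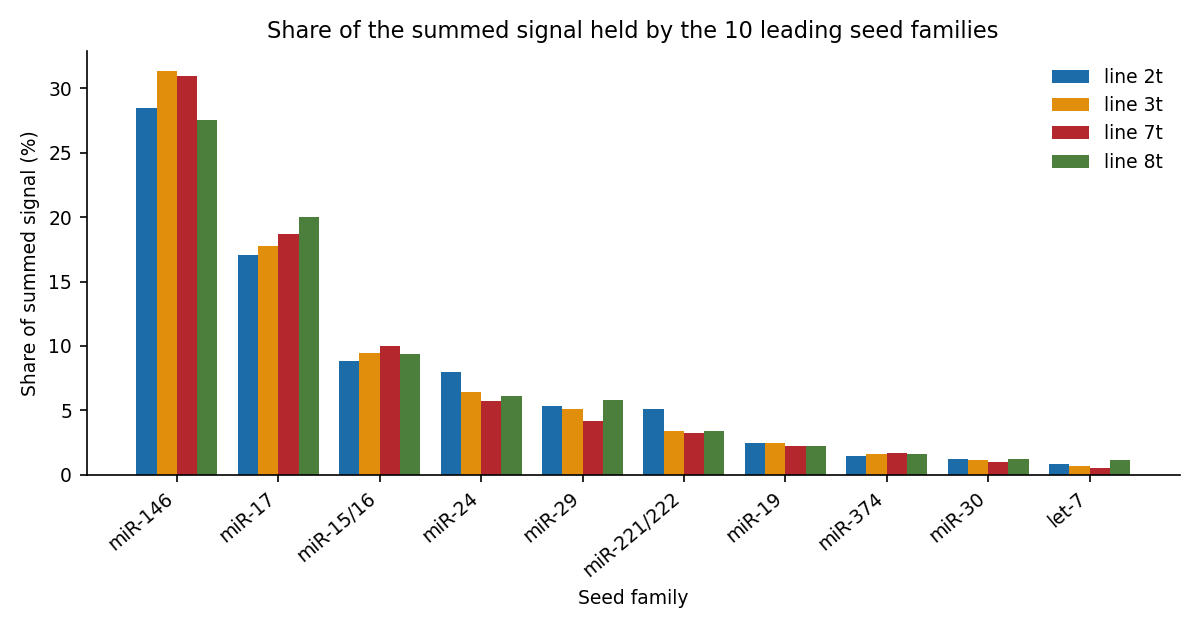
Share of the summed signal in percent (bars from 0, 1 bar per line without error bars, since each line has 1 card) for the 10 seed families with the largest mean share. The miR-146 family holds 27.5% to 31.4% and the miR-17 family 17.0% to 20.0% in each line, and line 2t stands above the others for the miR-222 family.

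Within several families the members were far apart. In the miR-17 family, whose order was the same on every card, mean Ct ran from 21.40 for miR-106a over 24.39 for miR-20b, 25.61 for miR-93 and 26.18 for miR-20a to 27.35 for miR-106b. The difference between miR-106a and miR-106b was 5.75 to 6.14 cycles in the 4 lines. In the miR-29 family, miR-29b came 9.37 ± 0.26 cycles after miR-29a and miR-29c 3.70 ± 0.23 cycles after it (SD, n = 4), although 1 of the 2 loci of miR-29b lies beside miR-29a and the other beside miR-29c. For miR-221, which lies beside miR-222 on chromosome X, the delay was 6.90 in line 2t, 7.22 in line 3t, 7.75 in line 7t and 6.08 in line 8t. These delays are sums of a difference in level and a difference between assays.

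All 8 let-7 members on the card were detected in all 4 lines, yet they held only 0.79% ± 0.24 (SD, n = 4) of the signal. Of these, let-7e was earliest, at 25.73, 25.67, 26.28 and 25.45 in lines 2t, 3t, 7t and 8t. The steadiest was let-7g, at 26.23, 26.26, 26.34 and 26.58. By contrast, let-7a read 30.38 in line 2t, 30.84 in line 3t, 32.81 in line 7t and 32.06 in line 8t, a range of more than 2 cycles. The family share was 0.81%, 0.71%, 0.54% and 1.10% in these lines, lowest in line 7t and highest in line 8t. Much of it was let-7e, which alone held 0.43%, 0.39%, 0.25% and 0.67%. Line 7t had the latest Ct for 4 of the 8 members, and as deposited for 21 of all 139 shared microRNAs. The mature strands of let-7c, let-7e and let-7f each differ from let-7a in 1 base, so that the split among them is uncertain.

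Detection differed between genomic clusters. A mature strand made from several loci, such as miR-19b and miR-92a on chromosomes 13 and X, is counted at each of them, since its assay does not tell the loci apart. All 6 members on the card of the miR-17 to miR-92a cluster on chromosome 13 were detected in all 4 lines, as were all 6 of its relative with miR-106a and miR-363 on chromosome X. Of the 11 assays for the miR-532 to miR-502 cluster on chromosome X, 9 were detected in all 4 lines, led by miR-532-5p at a mean Ct of 26.64. For the miR-24, miR-27a and miR-23a cluster on chromosome 19, miR-24 had a mean Ct of 21.80, miR-27a came 6.67 ± 0.39 cycles later (SD, n = 4), and miR-23a was detected in line 3t alone, at 36.92. The same mature miR-24 is also made from chromosome 9, beside miR-27b and miR-23b, so that its signal cannot be assigned to 1 cluster. Of the 41 assays for the imprinted cluster on chromosome 14, 36 were detected in no line and only miR-494 in all 4. Of the 37 assays for the placental and stem cell clusters on chromosome 19, 30 were detected in no line, 7 in some and none in all 4. For comparison, of the 335 assays with a locus, 134 were detected in all 4 lines, 53 in some and 148 in no line. The miR-424 to miR-450b cluster on chromosome X had 5 of 6 members detected in only some lines and none in all 4, with line 2t and line 3t detecting 3 each and line 7t and line 8t detecting 2 each.

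The label was compared with markers of cell types. The list for pigment cells and melanoma has 11 assays, for miR-146a, miR-204, miR-211 and members of the melanoma-associated group on chromosome X. Of the 11, 8 were detected in all 4 lines, 1 in some and 2, miR-507 and miR-513-5p, in none. The 8 count miR-146a, known also for damping inflammatory signaling, which held 29.5% of the signal where all 11 held 30.0%. Of all 377 assays, 36.9% were detected in all 4 lines. The 8 included miR-204, at 26.76, 26.56, 26.31 and 26.92 in lines 2t, 3t, 7t and 8t. In the same order, miR-508-3p read 27.42, 26.87, 26.93 and 27.82, and miR-509-5p 28.64, 28.31, 28.33 and 29.08. Other members were late, with a mean Ct of 31.87 for miR-506, 33.51 for miR-509-3-5p, 34.74 for miR-510 and 35.96 for miR-508-5p. The count of 8 rests in part on readings near the limit of 38. In line 3t miR-508-5p read 37.97, in line 2t miR-510 read 37.10 and in line 8t miR-509-3-5p read 35.13. With a limit of 35, none of these would count as detected in all 4 lines, and 116 of all 377 assays would. Breast epithelial cells carry the miR-200 family, miR-141 and miR-205, of which miR-141 and miR-205 were Undetermined on every card. Here miR-200c read 34.53, 34.30, 32.40 and 35.46 and miR-200b 35.03, 35.02, 34.17 and 36.76, in the same late range, and the 7 epithelial assays together held 0.0011% to 0.0059% of the signal.

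Markers of other cell types were also read, although the lines had been selected with G418 for the GFP vector, which host cells lack. Many microRNAs have the same sequence in mouse and human. The blood markers miR-451, miR-142-3p, miR-142-5p and miR-486-5p were detected in no line and 3 others in some. Of the latter, miR-223 was detected in lines 2t, 3t and 8t at 35.42, 35.35 and 36.07 and was Undetermined in line 7t. In lines 2t and 8t miR-150 read 35.54 and 37.46, and miR-486-3p was detected in line 2t alone, at 35.86. The 7 blood assays held at most 0.0014% of the signal of any line. Of 6 fibroblast and smooth muscle assays, miR-143, miR-145, miR-199a-5p, miR-199b-5p and miR-214 were detected in no line and miR-199a-3p in lines 2t and 7t, at 36.08 and 36.19. Of 7 striated muscle assays, only miR-133a was detected, in line 7t at 35.57, and of 7 embryonic stem cell assays only miR-372, in line 3t at 35.04. The liver microRNA miR-122 was detected in no line. Of the neural microRNAs, miR-9 was steady at 27.99, 27.80, 27.96 and 28.13, miR-128 was detected in all 4 lines at a mean Ct of 34.47, miR-124 and miR-219-5p in none and miR-137 in line 8t alone, at 35.70.

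The 61 microRNAs detected in only some lines were mostly late. There were 29 found in 1 line, 18 in 2 and 14 in 3. In 45 of the 61 the earliest Ct was 35 or more, and in only 7 was it below 34. Such readings are near the limit of the assay, and 6 of the 61 gave some Ct in every line. In contrast, 42 were Undetermined in every line that did not detect them. Just inside the limit lay 18 readings of these 61 between 37 and 38, the latest at 37.94, and just outside it 24 from 38 to below 40, the earliest at 38.08.

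The clearest case was miR-211. It was Undetermined in lines 2t and 8t and read 33.33 in line 3t and 29.00 in line 7t. The difference between lines 3t and 7t was 4.34 cycles, about 20.2 times if each cycle doubles the template. In line 7t it ranked 65th among all assays. Its sister miR-204, with the same seed and 26.31 to 26.92 in the 4 lines, ranged over only 0.61 cycles, so that every line held the seed.

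Several microRNAs went undetected only in line 8t, each read in a single well per card. The line 8t well was Undetermined for miR-708, which read 32.79, 31.68 and 32.41 in lines 2t, 3t and 7t. It was also Undetermined for miR-361-5p, which read 33.99, 33.76 and 33.87 there, and for miR-636, at 33.67, 32.77 and 34.55. With miR-597, miR-887 and miR-542-5p these make 6 microRNAs that line 8t alone did not detect. Line 8t also had the latest U6, at 16.77 against 16.15 to 16.36 in the other lines. The part of this offset in these 6 readings was not tested.

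**Figure D3:**
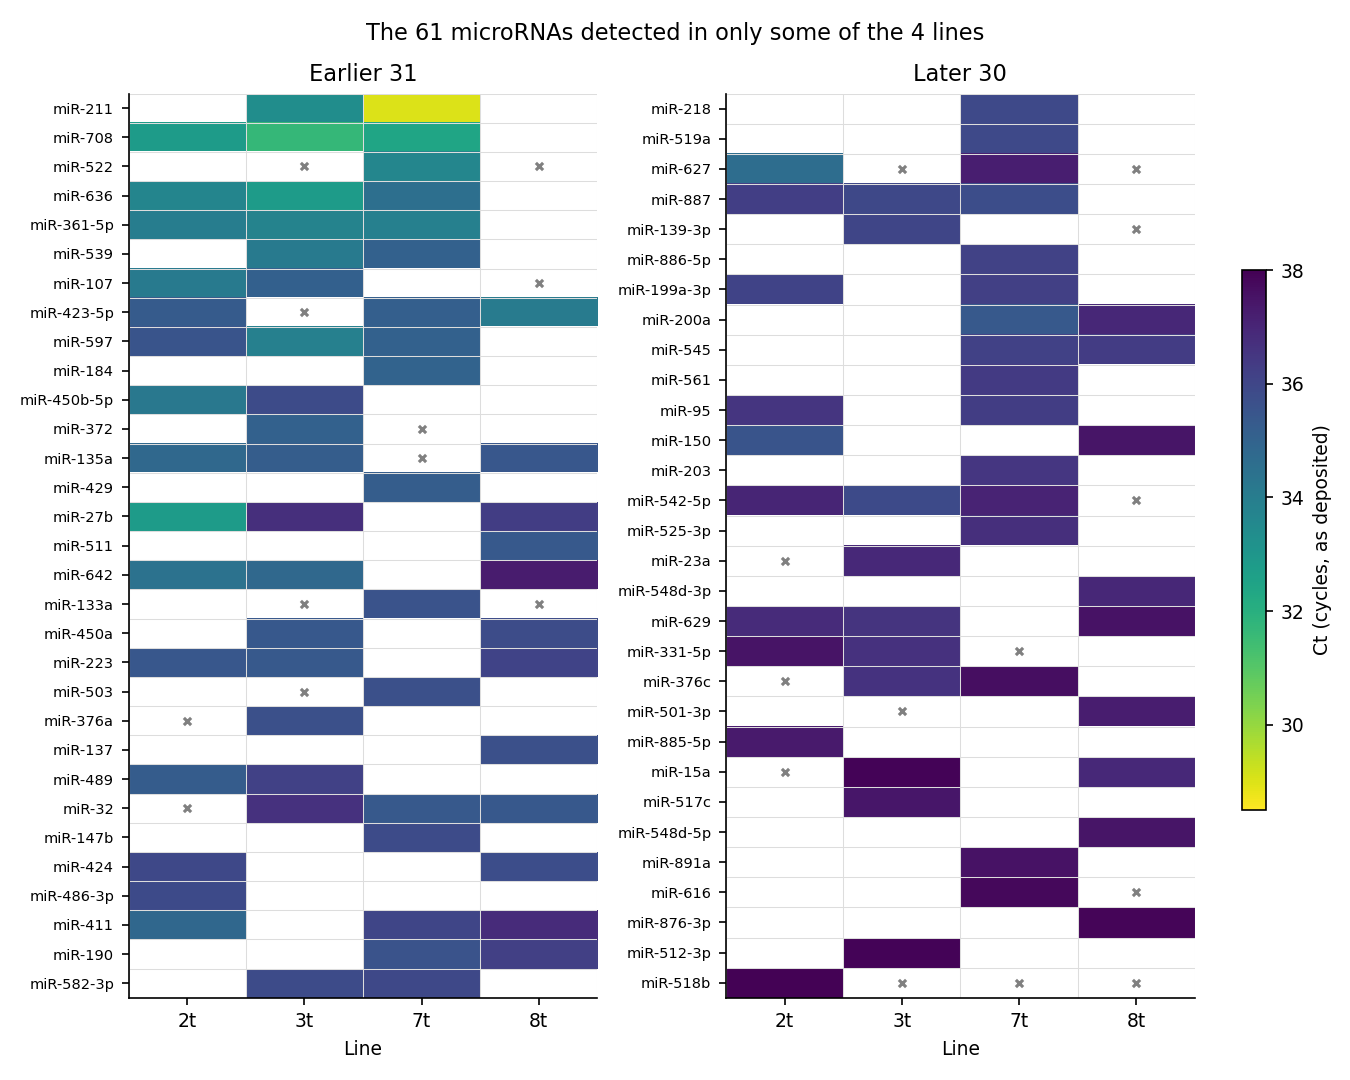
Ct as deposited (color, cycles) of the 61 microRNAs detected in 1 to 3 of the 4 lines, ordered from the earliest to the latest mean Ct over the lines that detect them. White cells were Undetermined, and a cross marks a Ct of 38 to below 40. The earliest value is miR-211 in line 7t, at 29.00, and most colored cells lie at 35 or later.

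Line 7t had the most microRNAs of its own, 14, against 3 in line 2t and 6 each in lines 3t and 8t. The 2 earliest were miR-522, a member of the chromosome 19 cluster, at 33.65 and miR-184, at 34.97. In line 2t alone miR-486-3p was detected at 35.86 and miR-885-5p at 37.32. In line 3t alone it was miR-372 at 35.04 and miR-376a at 35.68, and in line 8t alone miR-511 at 35.36 and miR-137 at 35.70. The epithelial markers miR-429 and miR-203 were among those found in line 7t alone, at 35.20 and 36.50.

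Other microRNAs were missing from 1 line. In line 7t alone, 5 were not detected, among them miR-27b, which read 32.79 in line 2t, 36.72 in line 3t and 36.27 in line 8t, and miR-135a, at 34.81, 35.18 and 35.43 with 38.75 in line 7t. Line 3t did not detect miR-423-5p, at 35.28, 35.12 and 34.03 in lines 2t, 7t and 8t with 39.60 in line 3t, nor miR-411, at 34.81, 36.03 and 36.82. Only miR-32 was missing from line 2t alone, with 36.64, 35.35 and 35.37 in lines 3t, 7t and 8t. Of those found in 2 lines, miR-107 read 34.12 in line 2t and 35.09 in line 3t, was Undetermined in line 7t and gave 38.17 in line 8t. Also in 2 lines, miR-539 read 34.12 in line 3t and 35.03 in line 7t.

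For the spread between lines, quantile normalization over all 7 cards of the study was used, which removes an offset such as that of line 8t. The median SD over the 4 lines was 0.34 cycles for the 139 shared microRNAs, and 0.40 cycles for Ct as deposited. The SD was below 0.5 cycles for 93 of the 139 (66.9%) and 1 or more for 10. After normalization it widened at each step as the level fell. The 19 microRNAs with a mean Ct below 25 had a median SD of 0.12, the 59 from 25 to 30 of 0.27, the 52 from 30 to 35 of 0.54 and the 9 from 35 to 38 of 0.84. As deposited these medians were 0.31, 0.29, 0.65 and 0.68, with no widening from the earliest group to the next.

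**Figure D4:**
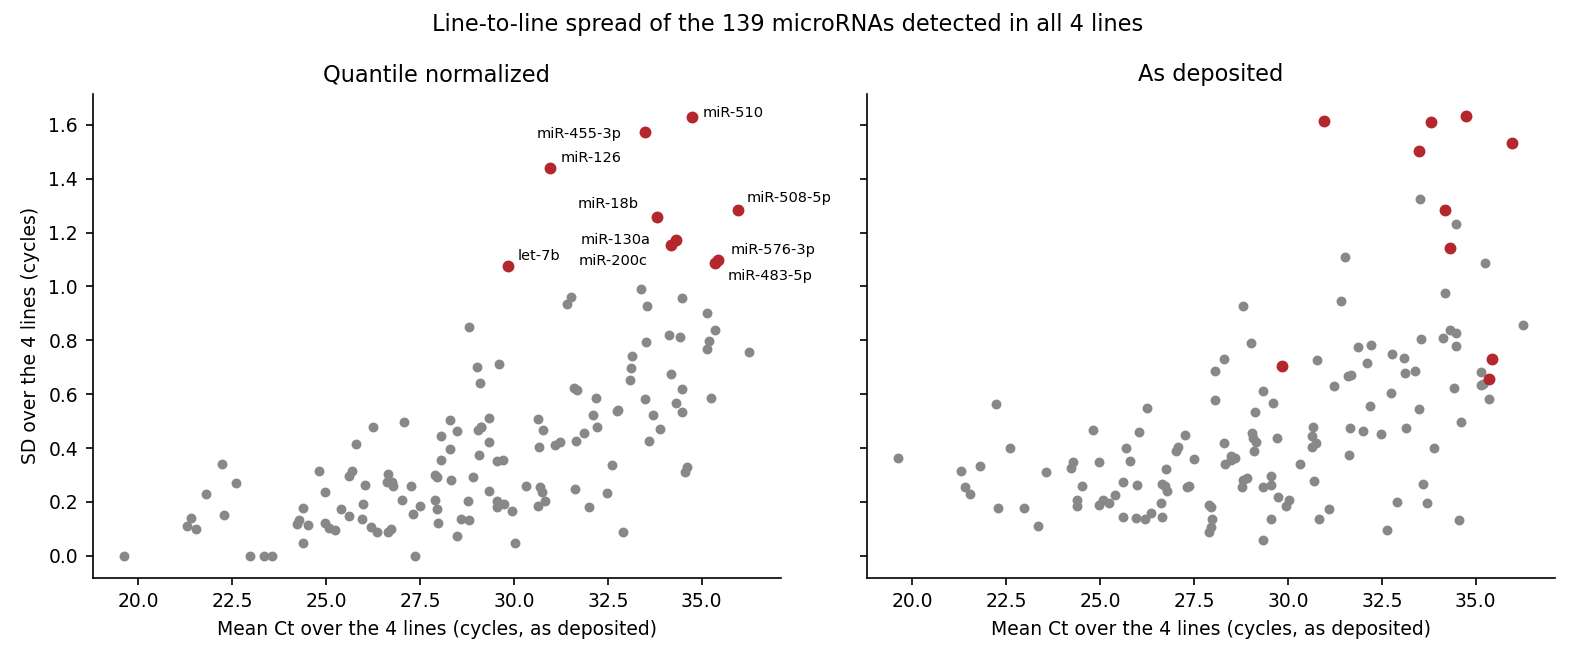
SD over the 4 lines in cycles (vertical axis) against mean Ct as deposited (horizontal axis) for each of the 139 shared microRNAs, after quantile normalization (left) and as deposited (right). The 10 largest SDs of the left panel are red in both panels and named on the left, and all but 1 of them, let-7b, have a mean Ct above 30.

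The microRNAs that varied most were late ones, except let-7b. The largest SD was that of miR-510, of the melanoma-associated group on chromosome X. It read 37.10 in line 2t, 34.23 in line 3t, 34.28 in line 7t and 33.34 in line 8t. Next came miR-455-3p, within the span of the collagen gene COL27A1, at 32.27, 35.68, 33.00 and 33.01. The former was latest in line 2t and the latter in line 3t. A further member of that chromosome X group, miR-508-5p, read 35.33, 37.97, 34.36 and 36.19, and miR-18b, of the miR-106a cluster, read 34.93, 31.82, 33.18 and 35.27.

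The endothelial microRNA miR-126 was earlier in line 7t than elsewhere. It read 30.98 in line 2t, 31.75 in line 3t, 28.71 in line 7t and 32.41 in line 8t, 3.01 cycles earlier in line 7t than the mean of the others. It was the only endothelial marker on the list. The part of host cells in the miR-126 value of line 7t was not tested.

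The other microRNAs with large SDs were miR-130a, miR-200c, miR-576-3p, miR-483-5p and let-7b. Line 7t was earliest for miR-130a, at 32.69 against 34.43 to 35.24, and for miR-200c, at 32.40 against 34.30 to 35.46. Of the epithelial assays, miR-200b and miR-200c were detected in all 4 lines, and each had its earliest Ct in line 7t. The assay for miR-200a was detected in lines 7t and 8t, at 35.35 and 36.96. For miR-429 and miR-203, detected in line 7t alone, the earliest line was fixed by that detection. As deposited, line 7t was earliest for 53 of the 139 shared microRNAs, more than any other line, and it had the earliest controls. The growth regulator let-7b was earliest in line 8t, at 28.91 against 29.66 to 30.41, although line 8t was latest on the controls. As deposited, the SDs of let-7b, miR-576-3p and miR-483-5p were 0.71, 0.73 and 0.66 in place of 1.07, 1.10 and 1.09, and these were the 3 of the 10 that left the 10 largest.

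**Figure D5:**
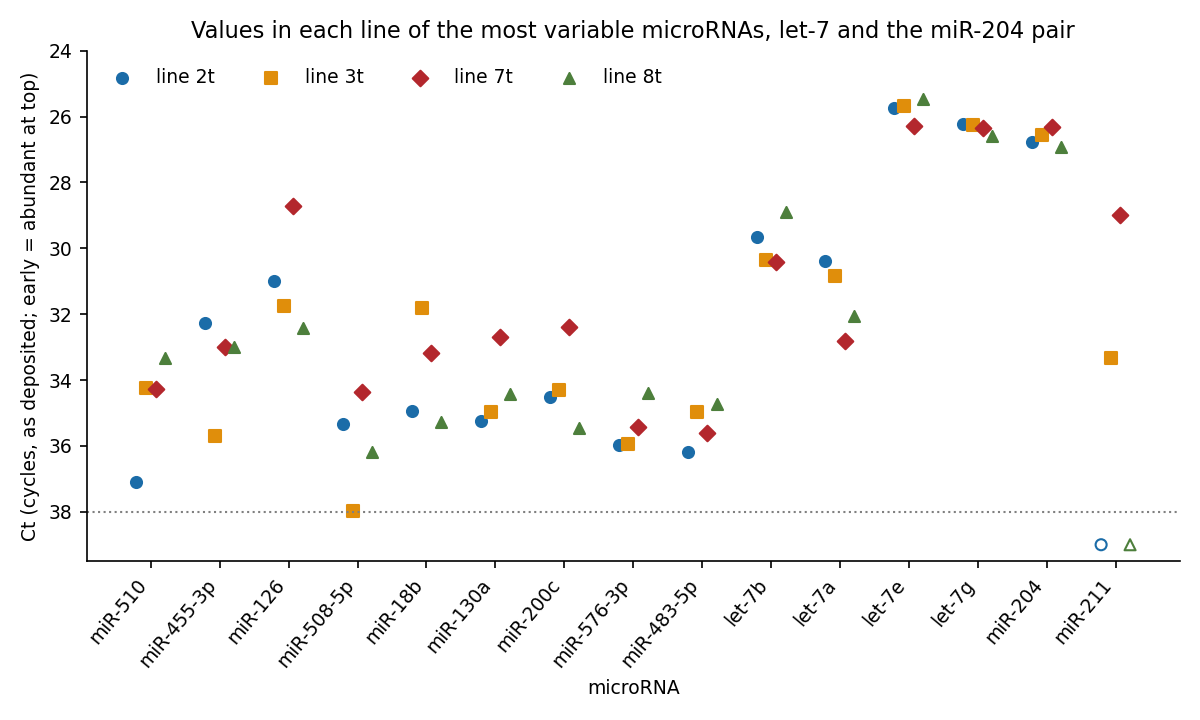
Ct as deposited (vertical axis, cycles, reversed) in each line for the 10 microRNAs with the largest SD, 3 further let-7 members and the pair miR-204 and miR-211. Open symbols under the dotted limit of 38 stand for Undetermined wells and are not at a measured Ct. Line 7t (diamonds) is earliest for miR-126, miR-130a, miR-200c and miR-211, whereas let-7g and miR-204 barely move.

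The steadiest microRNAs were abundant or of middle level. After quantile normalization, miR-146a, miR-484, miR-320, miR-19b and miR-106b had an SD of 0, which means that each held the same rank on all 4 cards and not that its level was equal. Their SDs as deposited were 0.36, 0.18, 0.11, 0.31 and 0.26 cycles. Next came miR-20b, miR-324-3p, miR-26a, let-7g and miR-532-5p, with SDs of 0.05 to 0.09 normalized and 0.14 to 0.36 as deposited. Only 1 of these 10, miR-320, was also among the 10 smallest SDs as deposited. Within the miR-17 family the normalized SD was at most 0.15 for each of the 6 members. In the let-7 family it ran from 0.09 for let-7g to 1.07 for let-7b, which had 0.71 as deposited. The levels differed too, with mean Ct from 21.40 to 27.35 in the miR-17 family and from 25.78 to 34.41 in the let-7 family.

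No line stood far from the rest. For each pair of lines, the median absolute difference over the 139 shared microRNAs was 0.27 to 0.44 cycles, smallest between lines 2t and 8t and largest between lines 2t and 7t. As deposited both ends changed, to 0.29 between lines 2t and 3t and 0.59 between lines 7t and 8t. The Pearson correlation across microRNAs was 0.974 to 0.983, a description over 139 microRNAs that are not independent replicates. Line 7t was the farthest on average, at 0.39 cycles, where lines 2t, 3t and 8t had 0.33, 0.32 and 0.31. As deposited, line 8t was farthest instead, at 0.51 against 0.46 for line 7t. After normalization 12 microRNAs lay more than 1 cycle from their mean in line 7t, against 6 in line 2t, 7 in line 3t and 5 in line 8t. Of the 12, 6 were earlier in line 7t, led by miR-126, miR-200c and miR-130a, and 6 later, led by let-7a and miR-193a-5p.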

How the data were processed

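The authors extracted total RNA, ran TaqMan Array A cards on a 7900HT instrument and deposited, per well, an average Ct in cycles, which is a log2 scale before normalization. They also deposited a standard error of the U6 wells, the other value used, which was multiplied by the square root of 4 to give an SD. Columns have no header, and their meaning was read from the values and the methods. The members, families and marker lists were chosen with earlier results of these data known. The 4 lines were grouped by label. Detection, ranks and shares used Ct as deposited. Spread and distance used quantile normalization over 381 assays and 7 cards (limma 3.58.1, R 4.3.3), the method of the study. Share is the sum of 2 to the power of minus Ct over detected microRNAs. No groups or lines were tested against each other, since each line has 1 card. Dixon's ratio was used only to mark a line that stands apart. Named microRNAs are the 15 earliest, the 10 earliest found in some lines, up to 2 found or missing in each line alone, the 10 most and 10 least variable, markers, family extremes and controls. Others carry values only as members of a described family, cluster or count, or where stated. Loci within 10 kb on 1 strand form a cluster. The melanoma-associated group on chromosome X was taken by name and spans more than 1 such cluster. Functions were tested on simulated data. Alternatives were other detection limits, scales, amplification rates, measures of spread and distance, and leaving out each line. Depth has no equivalent here, and Ct near 38 is the least precise.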

Additional observations from a re-analysis of the deposited data

Results flagged for a closer look

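For independent values without ties, chance would flag about 2.6 of 52 results. That number does not hold here, since normalized ranks tie and some microRNAs were named by their SD. Of 52 results with a value in each of the 4 lines, 7 had 1 line that stood apart. Its gap to the next line, as a share of the whole range, exceeded Dixon's critical value for 4 samples. After quantile normalization this ratio was 1 for miR-16 and miR-29a in line 8t, for miR-17, miR-222 and miR-374b in line 2t and for miR-26a in line 3t. A ratio of 1 means that the other 3 lines had tied ranks, and as deposited these 6 ratios were 0.41, 0.39, 0.23, 0.58, 0.47 and 0.73, all below the limit. The share of the miR-222 family had a ratio of 0.914 for line 2t, which held 5.11% against 3.27% to 3.43% in the other lines. Over all 139 shared microRNAs, 14 passed normalized and 7 as deposited, with 0 in common. Chance gives about 6.95 for values without ties, and the normalized values hold ties.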

How the results depend on the processing

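No paired analysis was possible because no groups are compared and the values described come from no fit. The 15 earliest microRNAs and the order of the 8 leading families were the same under every alternative run. With a limit of 35, 38 in place of 61 microRNAs were detected in only some lines. With 1.9 and 1.8 per cycle in place of 2, the share of the 10 earliest was 76.3% and 71.6%, of the miR-146 family 26.2% and 22.6%, of the miR-19 family 2.62% and 2.86% and of the miR-374 family 1.79% and 2.03%, while the miR-16 family held 8.72% with 1.8. With quantile normalization the shares were 34.8% for miR-146, 16.1% for miR-17, 8.50% for miR-16 and 2.16% for miR-19. The median SD was 0.40 as deposited, 0.36 relative to U6, 0.41 relative to RNU44 and RNU48 and 0.21 for microRNAs below 30 in every line, and counts as moved where it left the range of 0.26 to 0.35 found with each line left out. Of the 10 most variable, 6 were shared relative to RNU44 and RNU48, 2 with a limit of 35 and 0 with a limit of 30. Of the 10 least variable, 1 was shared as deposited, 4 relative to U6, 1 relative to RNU44 and RNU48 and 4 relative to the mean of shared microRNAs. The farthest line was 8 as deposited and 7 under all 8 other alternatives. With each line left out, 140 to 145 microRNAs were detected in all remaining lines and 42 to 57 in some, the share of the 10 earliest was 79.9% to 80.6%, and 7 to 8 of the 10 most and 5 to 8 of the 10 least variable were shared. The share of the miR-222 family was 3.36% to 3.98%, lowest without line 2t. The causes were not tested. The offset of line 8t, 1 card per line and readings near 38 limit these values.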
